A study of Mus musculus with 4 samples.

Results

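The nuclear-encoded subunit genes of oxidative phosphorylation (OXPHOS) were compared between Mettl14 knockout and control mouse embryos. Members were the protein-coding genes named Nduf followed by a, b, c, s or v, Sdha to Sdhd, Uqcr, Cox4 to Cox8 and Atp5, without assembly factors, and 85 of the 47885 rows of the count table met this rule. They comprised 38 genes of complex I, 4 of complex II, 8 of complex III, 18 of complex IV and 17 of complex V. The KO group was 2 embryos typed Mettl14-/- and the WT group 2 embryos labelled Mettl14+/+, all of C57BL/6 background at embryonic day 5.5, with no drug or other treatment named. Mettl14 encodes the METTL14 subunit of the enzyme that writes N6-methyladenosine on RNA. Each library was made from 1 whole embryo, from polyadenylated RNA amplified with a Smart-Seq v4 kit. Genotype was assigned from Mettl14 qPCR on the amplified cDNA, and an embryo in which the transcript was found counted as a control, so a heterozygous embryo could stand among the controls. Which stretch of the gene was deleted, and whether a Cre line was used, the labels leave unsaid.

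Oxidative phosphorylation is the step by which mitochondria turn the energy of food into ATP. Complex I (NADH dehydrogenase) and complex II (succinate dehydrogenase) pass electrons to ubiquinone, complex III passes them on to cytochrome c, and complex IV hands them to oxygen. Complexes I, III and IV pump protons across the inner membrane, and complex V, the ATP synthase, makes ATP from the returning protons. Most subunits are encoded in the nucleus, while a small core of complexes I, III, IV and V is encoded by mitochondrial DNA. The early postimplantation embryo draws heavily on glycolysis, and its mitochondria mature further as organs form.

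Total counts were 20248636 and 28698541 in KO embryos 1 and 2 and 16108062 and 20121289 in WT embryos 1 and 2. The second embryo was thus the deeper one in both groups, though it had fewer genes with a count. A single count was worth 0.0359 to 0.059 CPM (counts scaled to the TMM library size). Mettl14 stood at 4.63 and 8.04 CPM in the KO embryos, against 34.0 and 31.6 CPM in the WT embryos (log2 fold change -2.37 ± 0.45 SE, edgeR adjusted p = 0.274). The same gene decided the grouping, so this value checks the labels without being independent of them. The embryos also differed in their lineage markers, which bears on any level measured in whole embryos: in such libraries, fewer cells of a type and less RNA per cell cannot be told apart. Summed visceral endoderm markers reached 334 and 412 CPM in the KO embryos, against 798 and 2040 CPM in the WT embryos, and 12 of the 13 tested were lower in KO. Summed markers of giant cells and ectoplacental cone reached 1833 and 1039 CPM in the KO embryos, against 374 and 575 CPM in the WT embryos, with 5 of 5 tested markers higher and Prl2c2 and Tpbpa at 0 in every embryo. Extraembryonic ectoderm markers summed to 2364 and 1809 CPM in the KO embryos and to 1109 and 1685 CPM in the WT embryos, where 7 of 10 were higher in KO. Epiblast markers (5 of 10 higher in KO) summed to 2210 and 3259 CPM in the KO embryos, against 2960 and 2832 CPM in the WT embryos. Parietal endoderm markers (4 of 8 higher) summed to 605 and 550 CPM in the KO embryos, against 372 and 982 CPM in the WT embryos. Maternal decidua markers (5 of 6 lower, Hoxa11 at 0 throughout) summed to at most 5.05 CPM in a KO embryo and 25.7 CPM in a WT embryo. Blood and immune markers (4 of 4 higher, Hbb-bs and Lyz2 at 0 throughout) summed to at most 5.81 CPM in a KO embryo and 3.24 CPM in a WT embryo. The part of tissue composition in the values that follow was not tested.

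OXPHOS subunit mRNAs were abundant in all 4 embryos and stood at close to the same level in both groups. Together the 85 genes made up 2.06% and 2.00% of all counts in the KO embryos, against 2.03% and 2.14% in the WT embryos. Their CPM summed to 19738 and 20570 in the KO embryos and to 19241 and 22960 in the WT embryos, so that the KO values lay between the WT values and the log2 ratio of the group means was -0.07. Of the 85 members, 82 passed the filter on low counts (Cox6a2, Cox8b and Cox8c did not), and those 82 had a median level of 185 CPM, against 11.8 CPM over all 15563 genes tested.

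**Figure D1:**
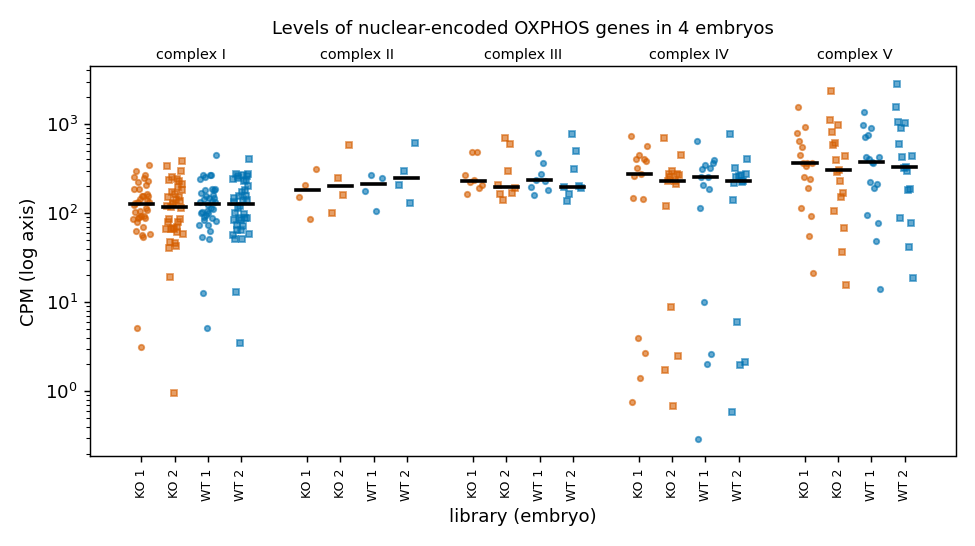
Level of each OXPHOS subunit gene that passed the filter (points, CPM on a log axis) in KO embryos 1 and 2 and WT embryos 1 and 2, by complex; black bars are medians. The clouds of the 4 embryos overlap in every complex, and the low points of complex IV are its tissue-restricted isoforms.

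No OXPHOS subunit gene was called different between KO and WT by edgeR at an adjusted p under 0.05. Across all genes tested, edgeR called 0% as well. DESeq2 and limma-voom also called 0 of the members. Over all genes limma-voom called 0, while DESeq2 did call genes in both directions, as counted in the section on processing. At an unadjusted p under 0.05, 0 members were higher and 0 lower in KO, beside a background of 4.74% of all genes higher and 3.08% lower. Both KO embryos lay above both WT embryos for 8 of the 82 members (19.4% of all genes) and below them for 15 (18.8% of all genes), a share that for the first is below the background and for the second close to it. The lowest edgeR adjusted p among members was 0.719, for Atp5f1.

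The absence of calls was accompanied by narrow fold changes. The median log2 fold change, KO over WT, was -0.065 over the 82 members, with an interquartile range of -0.197 to 0.081, beside a median of -0.035 and an interquartile range of -0.435 to 0.426 over all genes tested. A total of 33 members had a positive and 49 a negative fold change. The absolute log2 fold change had a median of 0.126 for the members, against 0.431 for all genes, and was under 0.5 for 77 of 82 members, against 8632 of 15563 genes. The 2306 genes at or above the members' lower quartile of 92.3 CPM had a median of 0.247, and 1918 of them were under 0.5. The 95% interval of the fold change lay wholly within 1 log2 unit of 0 for 60 of the 82 members, against 12.6% of all genes. Among the same 2306 highly expressed genes, 1111 met this limit. Leaving out any 1 embryo brought the 60 down to between 6 and 24, so the precision rests on having both embryos of each group. The median turned positive, at 0.05, without KO embryo 2 and, at 0.01, with the trend on exon length and GC content removed. Over all genes the median was -0.030 without KO embryo 2 and 0.023 with that trend removed.

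**Figure D2:**
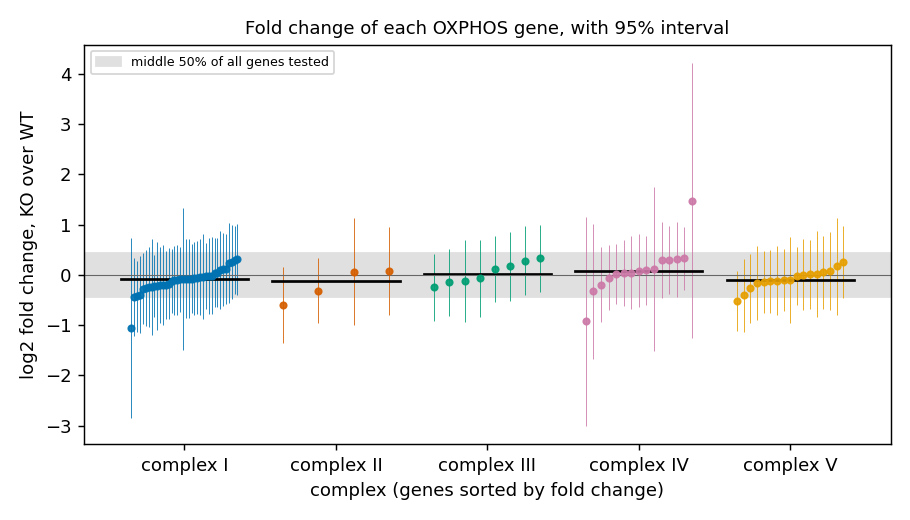
Log2 fold change (KO over WT) of each tested OXPHOS gene with its 95% interval, sorted within complexes I to V; black bars are the medians of the complexes and the grey band is the middle 50% of all genes tested. Most points lie inside the grey band, the medians run from -0.13 for complex II to 0.08 for complex IV, and every interval crosses 0.

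Complex I held more members than any other complex, and its genes leaned to lower values in KO without passing the test. The median log2 fold change was -0.083, with 29 of 38 genes negative, and summed levels were 5243 and 5077 CPM in the KO embryos, against 5318 and 5503 CPM in the WT embryos. Without KO embryo 2 the median turned to 0.038, and with the trend on length and GC content removed 22 genes were negative. Both KO embryos lay below both WT embryos for 9 of the 38 genes and above them for 2, beside 18.8% and 19.4% of all genes. Of the 2306 genes at or above 92.3 CPM, 1356 were negative, with a median of -0.073. The core subunits, which carry the flavin and the iron-sulfur clusters, had a median of -0.20, and the 29 accessory subunits a median of -0.08. The 4 genes of complex I with the smallest unadjusted p were all accessory subunits. Ndufb10, at chr17:24722060-24724478, a subunit of the membrane arm, measured 104 and 128 CPM in the KO embryos, against 155 and 157 CPM in the WT embryos (log2 fold change -0.43 ± 0.31 SE, edgeR adjusted p = 0.830). Ndufb4, also of the membrane arm, measured 56.5 and 46.0 CPM in the KO embryos, against 74.0 and 65.4 CPM in the WT embryos (log2 fold change -0.44). Ndufc1 measured 91.9 and 69.3 CPM in the KO embryos, against 115 and 96.9 CPM in the WT embryos (log2 fold change -0.40). For all 3 genes the groups did not overlap, but for Ndufb4 and Ndufc1 the nearest KO and WT embryos lay closer together than the KO embryos lay to each other. Ndufb2 had the lowest fold change of all members and few counts: 67 and 27 in the KO embryos and 86 and 66 in the WT embryos. Its levels were 3.16 and 0.969 CPM in the KO embryos, against 5.07 and 3.53 CPM in the WT embryos (log2 fold change -1.06 ± 0.78 SE, edgeR adjusted p = 0.842). Exons of Ndufb2 overlap those of Braf on the opposite strand by 146 bases and those of the gene model Gm42420 on the same strand by 145 bases, and Gm42420 had 0 counts in every embryo. The part of these overlaps in the low count was not tested. Apart from Ndufb2 and Ndufa4l2, the levels of complex I genes ran from 40.4 CPM (Ndufa3 in KO embryo 2) to 449.99 CPM (Ndufv2 in WT embryo 1).

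Complex II, which also works in the citric acid cycle, is the one respiratory complex made of nuclear-encoded subunits alone. Its summed level was 763 and 1082 CPM in the KO embryos, against 797 and 1241 CPM in the WT embryos, and the second embryo of each group stood higher. Sdha, the flavoprotein that oxidises succinate, measured 152 and 99.9 CPM in the KO embryos, against 177 and 205 CPM in the WT embryos (log2 fold change -0.60 ± 0.33 SE, edgeR adjusted p = 0.755). Sdhb, the iron-sulfur subunit, measured 208 and 245 CPM in the KO embryos, against 267 and 297 CPM in the WT embryos (log2 fold change -0.31 ± 0.29 SE, edgeR adjusted p = 0.878). Both catalytic subunits were lower in each KO embryo than in each WT embryo, as were 18.8% of all genes, and neither passed the test. Sdhc, a membrane anchor, measured 86.4 and 160 CPM in the KO embryos, against 105 and 130 CPM in the WT embryos (log2 fold change 0.07). Sdhd, the other anchor, measured 316 and 577 CPM in the KO embryos, against 248 and 609 CPM in the WT embryos (log2 fold change 0.06). For the anchors the groups overlapped, and the embryos of 1 group lay further apart than the group means. The median of the 4 genes, -0.13, turned positive without WT embryo 2 (0.0082) or KO embryo 1 (0.19). The anchors' fold changes turned negative without WT embryo 1 or without KO embryo 2, down to -0.43 for each.

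Sdha and Sdhd also differed in how their embryos were ordered: Sdhd was higher in the second embryo of both groups, Sdha was higher in WT embryo 2 and lower in KO embryo 2. The 120 bases before the RefSeq start site (GRCm38.p6) of both genes are shown because their levels split in this way. Capitals mark the letters GCGCA, any base and GCGC, the core of the site bound by nuclear respiratory factor 1 (NRF1), and CCGGAAG, the core of the site bound by the factor GABPA, searched on both strands. Both lie on the minus strand and are printed 5′ to 3′ along the gene.
Sdha, chr13:74350241-74350360: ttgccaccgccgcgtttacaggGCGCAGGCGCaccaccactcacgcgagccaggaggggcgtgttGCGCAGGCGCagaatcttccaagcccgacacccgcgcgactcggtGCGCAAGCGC
Sdhd, chr9:50603850-50603969: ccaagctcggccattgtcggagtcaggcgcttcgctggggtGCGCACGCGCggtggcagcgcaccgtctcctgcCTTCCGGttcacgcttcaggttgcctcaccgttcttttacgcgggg
The window of Sdha holds the NRF1 letters 3 times, and that of Sdhd holds 1 NRF1 and 1 GABPA match. Over windows from 250 bases before to 50 bases after the start, available for 67 members, the NRF1 letters were in 17 members (25.4%), against 5.19% of 27025 genes. Those are all genes with such a window, whether or not they were expressed in these embryos. A set of genes at the members' level was not compared. The GABPA letters were in 16 members (23.9%), against 9.93% of genes, and AAGATGGC, the core of the site of the factor YY1, in 9 members (13.4%), against 3.19%. The matches describe the sequence and are not evidence of binding in these embryos.

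Complex III showed small differences of either sign, with a median log2 fold change of 0.02 (4 genes positive and 4 negative; 6 and 2 with the trend on length and GC content removed) and all 8 intervals within 1 log2 unit. Summed levels were 2276 and 2460 CPM in the KO embryos, against 2106 and 2474 CPM in the WT embryos. Uqcrfs1, the Rieske iron-sulfur protein (chr13:30540308-30545362), measured 488 and 594 CPM in the KO embryos, against 364 and 496 CPM in the WT embryos (log2 fold change 0.33 ± 0.29 SE, edgeR adjusted p = 0.873). Uqcr10, a small subunit and the highest of the complex per kilobase of transcript, measured 269 and 205 CPM in the KO embryos, against 195 and 194 CPM in the WT embryos (log2 fold change 0.28). The other small subunits went both ways. Uqcr11 measured 165 and 165 CPM in the KO embryos, against 158 and 135 CPM in the WT embryos (log2 fold change 0.17). Uqcrh, the hinge protein, measured 192 and 170 CPM in the KO embryos, against 231 and 199 CPM in the WT embryos (log2 fold change -0.25). Both KO embryos lay above both WT embryos for 3 of the 8 genes, with Uqcr10 and Uqcr11 among them, and below them for 1, Uqcrh. Over all genes the shares were 19.4% and 18.8%. The groups overlapped for Uqcrfs1.

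Complex IV was the one complex with more positive than negative fold changes, 11 against 4 of 15 tested, with a median of 0.08. The median stayed positive under all 13 alternatives, from 0.052 to 0.28, and 9 of 15 genes were positive with the trend on length and GC content removed. The alternatives reuse the same 4 embryos. In the CPM of the main fit, KO embryo 2 had a median log2 difference of -0.15 from WT embryo 1 and -0.015 from WT embryo 2. Its summed level was 4093 CPM in KO embryo 1 and 3316 CPM in KO embryo 2, against 3429 and 3381 CPM in the WT embryos, so the higher KO mean came from embryo 1. All 10 broadly used subunits were higher in KO embryo 1 than in WT embryo 1, and 4 of the 10 were higher in KO embryo 2 than in WT embryo 1. Cox8a, a small structural subunit (chr19:7215153-7217616), measured 562 and 444 CPM in the KO embryos, against 399 and 403 CPM in the WT embryos (log2 fold change 0.33 ± 0.27 SE, edgeR adjusted p = 0.865). Cox6b1, which faces the intermembrane space, measured 317 and 253 CPM in the KO embryos, against 209 and 255 CPM in the WT embryos (log2 fold change 0.30). The groups were separate for Cox8a and overlapped for Cox6b1. Both KO embryos lay above both WT embryos for 2 of the 15 genes and below them for 1, beside 19.4% and 18.8% of all genes.

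Several subunits of complexes I, IV and V exist as paralogs used in different tissues, and the broadly used form made up most of nearly every set in every embryo. Shares are of the summed CPM per kilobase of transcript of the set. Cox4i1 held 99.9% and 99.7% of its set in the KO embryos, against 99.95% and 99.92% in the WT embryos. Its paralog Cox4i2, known for expression in lung and for its link to hypoxia, had the highest fold change of all members on very few counts. Those counts were 16 and 48 in the KO embryos, against 5 and 11 in the WT embryos, or 0.755 and 1.72 CPM against 0.295 and 0.588 CPM (log2 fold change 1.48 ± 1.19 SE, edgeR adjusted p = 0.859). The muscle forms were at or near 0: Cox8b had 0 counts in every embryo, which allows up to 0.0612 CPM in KO and 0.0841 CPM in WT (3 counts over the group, for counting error only), and Cox6a2 had 0 and 0 counts in the KO embryos and 1 and 0 counts in the WT embryos. Cox8c, known from testis, had 4 and 0 counts in the KO embryos, against 6 and 0 counts in the WT embryos. Cox7a1, the heart and muscle form, measured 1.42 and 0.682 CPM in the KO embryos, against 2.00 and 1.98 CPM in the WT embryos (log2 fold change -0.93 ± 0.91 SE, edgeR adjusted p = 0.893).

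The Cox7a set was the one of complex IV in which 2 genes shared the transcript pool. Cox7a2 held 74.9% and 63.5% in the KO embryos, against 68.3% and 65.6% in the WT embryos. Cox7a2l, which encodes a factor of respiratory supercomplexes, held 24.4% and 36.2% in the KO embryos, against 30.8% and 33.5% in the WT embryos. The KO embryos lay on either side of the WT embryos in both shares. Cox6a1 held at least 99.98% of its set and Cox8a at least 99.89% in every embryo. Cox6b1 held 98.7% and 96.4% in the KO embryos, against 95.2% and 97.6% in the WT embryos, the rest being Cox6b2, a form known from testis. Cox7b held 98.8% and 98.3% in the KO embryos, against 98.5% and 98.3% in the WT embryos. Ndufa4, first assigned to complex I and now placed in complex IV, was the highest gene of the Nduf members per kilobase. It held 98.9% and 94.99% of its set in the KO embryos, against 97.0% and 97.0% in the WT embryos. The hypoxia-responsive Ndufa4l2 measured 5.15 and 19.1 CPM in the KO embryos, against 12.7 and 13.0 CPM in the WT embryos, again with the KO embryos on either side of the WT embryos.

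**Figure D3:**
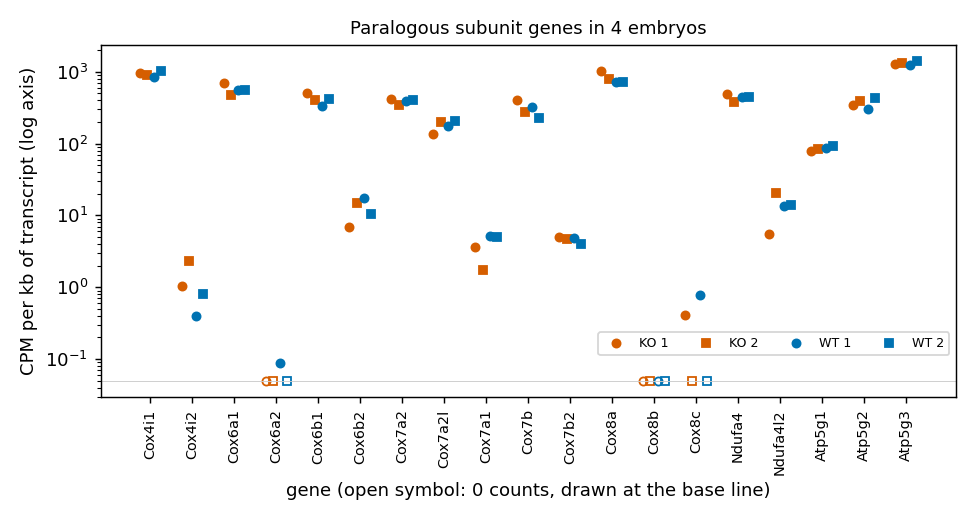
Levels of the paralogous subunit genes (CPM per kilobase of transcript, log axis) in KO embryos 1 and 2 (left) and WT embryos 1 and 2 (right of each gene); open symbols are 0 counts. The broadly used forms lie far above their tissue-restricted paralogs in all 4 embryos, except in the Cox7a and Atp5g sets, where several genes are high.

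Complex V carried the most abundant members and the member with the smallest p. Its summed level was 7363 and 8635 CPM in the KO embryos, against 7592 and 10361 CPM in the WT embryos, and the median log2 fold change was -0.098, which turned to 0.021 with the trend on length and GC content removed. Genes of the complex ran from 14.1 CPM (Atp5s, coupling factor B, in WT embryo 1) to 2813 CPM (Atp5b in WT embryo 2). Atp5f1, at chr3:105942698-105960099, encodes subunit b of the peripheral stalk that holds the catalytic head still. It averaged 577 ± 43.2 CPM in the KO embryos and 828 ± 102 CPM in the WT embryos (SD, n = 2 each), with 547 and 608 CPM in KO embryos 1 and 2 and 755 and 900.0 CPM in WT embryos 1 and 2. The groups were separate, but the difference did not pass the test (log2 fold change -0.52 ± 0.26 SE, 95% interval -1.12 to 0.08, edgeR adjusted p = 0.719). With that trend removed, the fold change turned to 0.11. Exons of Atp5f1 overlap those of Wdr77 on the opposite strand by 337 bases, and reads in that stretch cannot be assigned to a strand with this kit. All 4 peripheral stalk genes were negative, with a median of -0.14, but 3 of the 4 were positive with the trend removed, at a median of 0.052. Their levels summed to 1614 and 1578 CPM in the KO embryos, against 1913 and 1967 CPM in the WT embryos.

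The catalytic head of complex V varied more between embryos than between groups. Atp5a1, the alpha subunit, measured 800 and 1109 CPM in the KO embryos, against 978 and 1550 CPM in the WT embryos (log2 fold change -0.40 ± 0.32 SE, edgeR adjusted p = 0.852). Atp5c1, the central gamma shaft, measured 650 and 815.6 CPM in the KO embryos, against 715 and 1054 CPM in the WT embryos (log2 fold change -0.27, and 0.04 without WT embryo 2). Atp5e, the small epsilon subunit, measured 114 and 105 CPM in the KO embryos, against 95.2 and 88.1 CPM in the WT embryos (log2 fold change 0.26). Atp5e was thus the member of the head whose groups did not overlap, in the direction opposite to Atp5a1. Over the 17 genes of complex V, both KO embryos lay above both WT embryos for 1 and below them for 2. Over all genes the shares were 19.4% and 18.8%.

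The proton-carrying c ring is built from identical proteins encoded by 3 genes, Atp5g1, Atp5g2 and Atp5g3, which differ in the targeting peptide that is cut off on import. Atp5g3 was the highest member of all per kilobase. It held 75.3% and 73.7% of the set in the KO embryos, against 76.2% and 73.2% in the WT embryos, when the longest principal transcripts were used. With the shortest principal transcripts its share was 52.5% and 50.8% in the KO embryos, against 51.7% and 50.1% in the WT embryos, because principal transcripts of Atp5g1 run from 596 to 4715 bases. Either way the 4 embryos lay close together. Their levels were 367 and 394 CPM for Atp5g1 in the KO embryos, against 405 and 432 CPM in the WT embryos (log2 fold change -0.14). Atp5g2 measured 254 and 291 CPM in the KO embryos, against 225 and 318 CPM in the WT embryos (log2 fold change 0.00). Atp5g3 measured 938 and 973 CPM in the KO embryos, against 910 and 1037 CPM in the WT embryos (log2 fold change -0.03). The 120 bases before each RefSeq start site (GRCm38.p6, all on the minus strand) are shown to set the 3 promoters of 1 mature protein side by side, with the NRF1 letters in capitals.
Atp5g1, chr11:96075632-96075751: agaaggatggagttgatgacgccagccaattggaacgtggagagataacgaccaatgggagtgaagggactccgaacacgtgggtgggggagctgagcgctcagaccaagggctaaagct
Atp5g2, chr15:102671048-102671167: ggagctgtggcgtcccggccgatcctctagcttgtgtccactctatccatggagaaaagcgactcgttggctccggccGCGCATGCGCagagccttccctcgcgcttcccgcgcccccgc
Atp5g3, chr2:73911327-73911446: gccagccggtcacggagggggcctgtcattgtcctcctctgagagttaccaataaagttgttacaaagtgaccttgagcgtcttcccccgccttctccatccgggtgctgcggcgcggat
Of the 3 stretches, that of Atp5g2 holds the NRF1 letters, and the other two hold none of the 3 motifs searched. In the longer window from 250 bases before to 50 bases after the start, Atp5g3 holds the NRF1 letters as well and Atp5g1 holds none of the 3 motifs.

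Members also differed between embryos of the same group, in a pattern that was partly alike in KO and WT. The absolute log2 difference between embryos had a median of 0.33 between the KO embryos and 0.22 between the WT embryos, both above the median absolute fold change of 0.126 between groups, which averages 2 embryos a side. For 60 of the 82 members the mean difference between embryos exceeded that between groups, against 9602 of all 15563 genes. The embryos numbered 2 deviated alike in both groups: 27 members were higher in both, 35 were lower in both and 20 went opposite ways. Over all 82 tested members, the difference KO 2 minus KO 1 correlated with WT 2 minus WT 1 at Pearson 0.550 and Spearman 0.621. Across 14589 genes the values were 0.285 and 0.327. Over the 75 members with a mean of at least 20 CPM they were 0.749 and 0.713, a cut that was not applied to all genes. Genes are not independent replicates, the labels do not say that a number marks a shared litter or day, and no p is given.

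**Figure D4:**
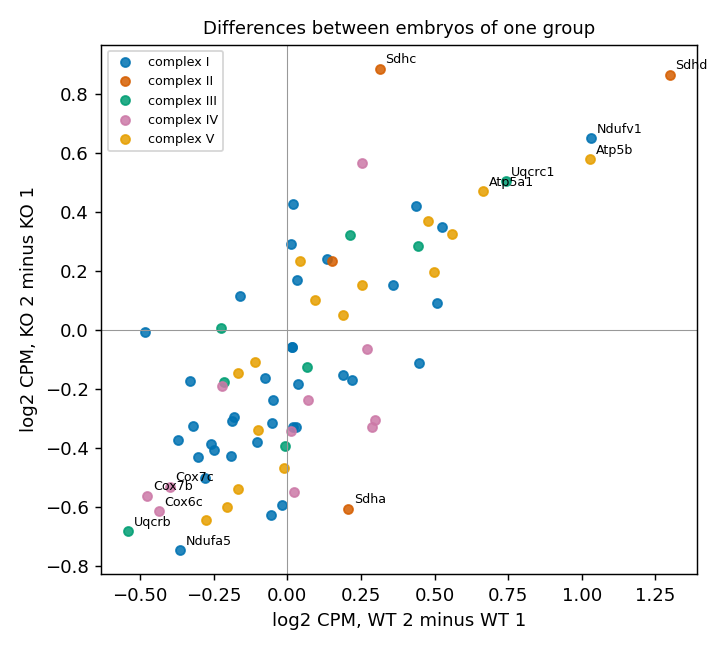
Difference in log2 CPM between the embryos of each group for the 75 OXPHOS genes with a mean of at least 20 CPM: KO 2 minus KO 1 on the vertical axis, WT 2 minus WT 1 on the horizontal axis, coloured by complex. Most points lie at the lower left and upper right, with Sdhd, Ndufv1 and Atp5b at the upper right and Uqcrb, Cox6c and Ndufa5 at the lower left.

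The deviations differed between parts of the complexes. In the second embryo the core subunits of complex I were higher by a median of 0.24 in KO and 0.36 in WT, those of complex III (both core proteins and the Rieske protein) by 0.32 in KO and 0.44 in WT, and the F1 head by 0.37 in KO and 0.56 in WT. Complex II (0.55 in KO and 0.26 in WT), the supercomplex factor Cox7a2l (0.57 and 0.25 in KO and WT) and the c ring (0.10 and 0.19 in KO and WT) were also higher in both second embryos. Other lists of small subunits ran the other way, by -0.31 in KO and -0.07 in WT for the accessory subunits of complex I, by -0.18 in KO and -0.21 in WT for the small subunits of complex III, and by -0.50 in KO and -0.13 in WT for the small membrane subunits of complex V. Several parts followed neither course. The broadly used subunits of complex IV had medians of -0.34 in KO and 0.018 in WT, the peripheral stalk 0.0039 in KO and -0.061 in WT, and coupling factor B -0.44 in KO and 0.40 in WT. The tissue-restricted subunits of complex IV had medians of 0.52 in KO and -0.17 in WT. Ndufa4 and its paralog were split in KO: Ndufa4 differed by -0.33 in KO and 0.021 in WT, and Ndufa4l2 by 1.89 in KO and 0.028 in WT. The following examples were chosen after their values were seen. Atp5b, the catalytic beta subunit, measured 1569 and 2346 CPM in KO embryos 1 and 2, against 1378 and 2813 CPM in WT embryos 1 and 2. Ndufv1, the NADH-binding subunit, measured 135 and 212 CPM in the KO embryos, against 135 and 275 CPM in the WT embryos. Uqcrc1, a core protein of complex III, measured 491 and 697 CPM in the KO embryos, against 467 and 781 CPM in the WT embryos. These 3 genes were higher in the second embryo of each group, and the 3 small subunits that follow were lower there. Uqcrb measured 226 and 141 CPM in the KO embryos, against 236 and 163 CPM in the WT embryos. Cox6c measured 451 and 294 CPM in the KO embryos, against 350 and 259 CPM in the WT embryos. Cox7b measured 407 and 276 CPM in the KO embryos, against 321 and 231 CPM in the WT embryos.

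Transcript length moved with this pattern among the members. Over the same 75 genes, the log2 transcript length correlated with KO 2 minus KO 1 at Pearson 0.499 and Spearman 0.523, and with WT 2 minus WT 1 at 0.405 and 0.459, so longer transcripts were higher in the second embryos. Across all genes the correlation with length had the opposite sign, at -0.065 and -0.196 in KO and -0.056 and -0.163 in WT. The fold change between groups correlated with length at -0.359 and -0.350 over the 75 members and at -0.288 and -0.296 over all 82. Over all genes it did so at 0.02 and 0.00. Transcripts encoded by mitochondrial DNA, which share no promoter or splicing with the nuclear genes, were lower in the second embryo of each group, by a median of -0.69 in KO and -0.73 in WT. They took 1.45% and 1.05% of all counts in the KO embryos, against 1.39% and 0.881% in the WT embryos. Depth was higher in the second embryo of each group, and so were the visceral endoderm markers given above. Fewer genes had a count there: 21250 and 18346 in KO embryos 1 and 2, and 21488 and 19603 in WT embryos 1 and 2. The markers of extraembryonic ectoderm and ectoplacental cone were lower in KO embryo 2 and higher in WT embryo 2. The part of length, depth, number of genes detected and tissue in the pattern was not tested.

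Among the genes that build, feed and express the complexes, 0 were called by edgeR, and the span of fold changes differed from list to list. The mitochondrially encoded subunits had a median log2 fold change of -0.01 over 12 tested genes, with 0 at an unadjusted p under 0.05. In that list mt-Co1, the catalytic core of complex IV, measured 2358 and 2320 CPM in the KO embryos, against 1917 and 1997 CPM in the WT embryos (log2 fold change 0.26 ± 0.23 SE, edgeR adjusted p = 0.877, DESeq2 adjusted p = 0.984). The second named gene, mt-Cytb of complex III, measured 3116 and 2699 CPM in the KO embryos, against 3053 and 2150 CPM in the WT embryos (log2 fold change 0.16).

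Among 15 tested assembly factors of complex I, 1 was higher and 1 lower at an unadjusted p under 0.05 (6.67% each), and the median was 0.15. The background over all genes was 4.74% higher and 3.08% lower. Ndufaf1, which helps to join the membrane arm, measured 161 and 167 CPM in the KO embryos, against 61.7 and 93.1 CPM in the WT embryos (log2 fold change 1.09 ± 0.34 SE, edgeR adjusted p = 0.488, DESeq2 adjusted p = 0.144). Tmem186, of the same assembly machinery, measured 3.82 and 3.80 CPM in the KO embryos, against 22.7 and 19.99 CPM in the WT embryos (log2 fold change -2.48 ± 0.45 SE, edgeR adjusted p = 0.274, DESeq2 adjusted p = 0.000337). Their fold changes had opposite signs, and exons of Tmem186 overlap those of Pmm2 on the opposite strand by 39 bases. Both KO embryos lay above both WT embryos for 5 of the 15 factors and below them for 2. Over all genes the shares were 19.4% and 18.8%. The genes named from each list had its smallest p, so separate groups in them are no further evidence. Among 30 tested assembly factors of complexes II to V, 3 were higher and 0 lower at an unadjusted p under 0.05 (10% and 0%, beside the same background). Their median was -0.06. Coa7, needed for complex IV assembly, measured 270 and 276 CPM in the KO embryos, against 99.6 and 113 CPM in the WT embryos (log2 fold change 1.36 ± 0.29 SE, edgeR adjusted p = 0.303, DESeq2 adjusted p = 0.0091). Cox19, a copper-related assembly factor of complex IV, measured 77.5 and 127 CPM in the KO embryos, against 51.0 and 48.0 CPM in the WT embryos (log2 fold change 1.05 ± 0.37 SE, edgeR adjusted p = 0.526, DESeq2 adjusted p = 0.238). The KO embryos lay closer together for Coa7 than for Cox19. Both KO embryos lay above both WT embryos for 8 of the 30 factors and below them for 2, beside the same 19.4% and 18.8%.

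The electron carriers and enzymes of ubiquinone synthesis had a median of -0.18, with 15 of 19 genes negative. At an unadjusted p under 0.05, 1 was lower (5.26%, beside 3.08% of all genes). That gene was Cycs, cytochrome c itself, at 475 and 430 CPM in the KO embryos, against 698 and 739 CPM in the WT embryos (log2 fold change -0.67 ± 0.26 SE, edgeR adjusted p = 0.574, DESeq2 adjusted p = 0.522). Coq9, of ubiquinone synthesis, measured 14.8 and 17.04 CPM in the KO embryos, against 23.9 and 29.7 CPM in the WT embryos (log2 fold change -0.75, edgeR adjusted p = 0.739, DESeq2 adjusted p = 0.717). Both KO embryos lay below both WT embryos for 5 of the 19 genes, Cycs and Coq9 among them, and above them for 1. Over all genes the shares were 18.8% and 19.4%.

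Proteins of the mitochondrial ribosome, which translates the mitochondrially encoded subunits, had a median of 0.11, with 49 of 77 genes positive. At an unadjusted p under 0.05, 6 were higher and 1 lower in KO, or 7.79% higher beside the background of 4.74%. Mrpl43 measured 355 and 530 CPM in the KO embryos, against 140 and 153 CPM in the WT embryos (log2 fold change 1.59 ± 0.32 SE, edgeR adjusted p = 0.274, DESeq2 adjusted p = 0.0026). Mrpl46 measured 279 and 358 CPM in the KO embryos, against 109 and 146 CPM in the WT embryos (log2 fold change 1.32 ± 0.32 SE, edgeR adjusted p = 0.362, DESeq2 adjusted p = 0.025). Exons of Mrpl46 overlap those of Mrps11, of the same ribosome, by 173 bases on the opposite strand. Exons of Mrpl43 overlap those of Twnk, the helicase that unwinds mitochondrial DNA, by 507 bases on the opposite strand. Twnk itself measured 22.3 and 18.4 CPM in the KO embryos, against 43.9 and 38.2 CPM in the WT embryos (log2 fold change -1.01 ± 0.37 SE, edgeR adjusted p = 0.545, DESeq2 adjusted p = 0.294). The fold changes of these neighbours had opposite signs, neither passed the edgeR test, and unstranded reads of their shared stretch cannot be told apart. Of the 13 genes for mitochondrial DNA expression, 2 were higher and 1 lower at an unadjusted p under 0.05 (15.4% and 7.69%, beside 4.74% and 3.08% of all genes). Mterf4, required for mitochondrial ribosome assembly, measured 123 and 147 CPM in the KO embryos, against 45.1 and 57.6 CPM in the WT embryos (log2 fold change 1.39 ± 0.34 SE, edgeR adjusted p = 0.362, DESeq2 adjusted p = 0.017). Its exons overlap those of Sned1 by 1855 bases on the opposite strand, and Sned1 had at most 28 counts in any embryo.

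**Figure D5:**
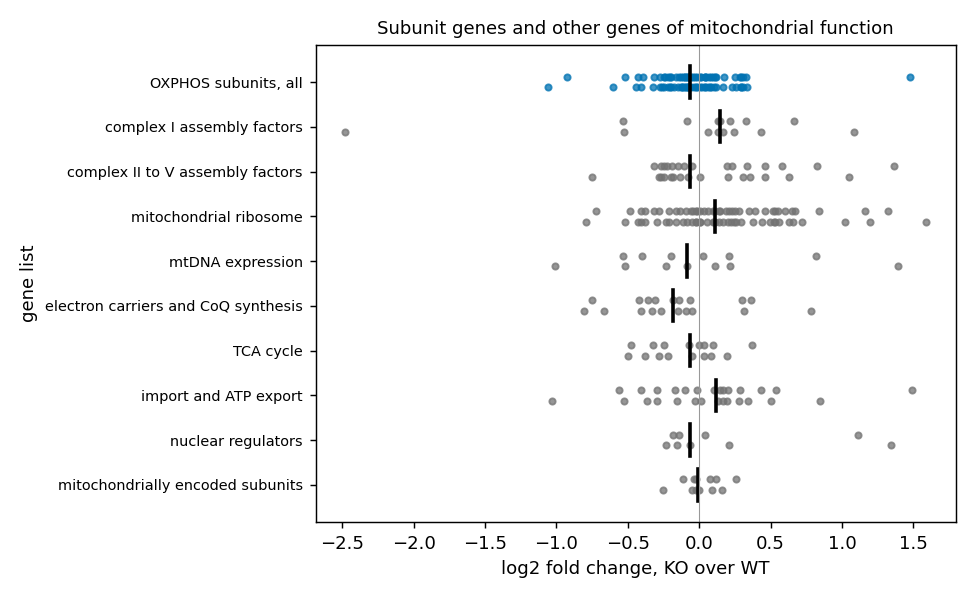
Log2 fold change (KO over WT) of each tested gene in the OXPHOS subunit list (top, blue) and in 9 other lists of mitochondrial function (grey); black bars are medians. Of the subunit genes 77 of 82 lie between -0.5 and 0.5, with Cox4i2 (1.48) and Ndufb2 (-1.06) outermost; the same holds for 56 of 77 genes of the mitochondrial ribosome, 24 of 30 and 10 of 15 assembly factors and 8 of 13 genes of mitochondrial DNA expression.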

How the data were processed

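RNA was measured in 4 single embryos. The authors deposited whole-number read counts per gene without normalisation. Per the submitters' processing notes, TopHat, Cufflinks and mm10 were used, with no role or version named. How reads were assigned to genes, with or without strand and on which annotation, the labels do not state. Of 47885 rows, 46574 matched GENCODE M21 (mm10).

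KO was compared with WT by edgeR 4.0.16 in R 4.3.3, after TMM scaling, by robust quasi-likelihood tests on genes kept by filterByExpr (a count of at least 10, a total of at least 15), and Benjamini-Hochberg adjustment over 15563 genes at 0.05. Fold changes are KO over WT; SE is the absolute log2 fold change over the square root of F, and 95% intervals use the t distribution of the fit. With 2 embryos a group, p-values reflect only how far these 4 animals differ. Levels per kilobase used the longest principal transcript. The fit was tested on simulated data. Alternatives were DESeq2 1.42.0, limma-voom 3.58.1, RLE scaling, library totals, other filters, leaving out each embryo, a replicate block and removal of a length and GC trend. For that trend, length was that of all exons of a gene merged, and not the principal transcript length used for the correlations. It was fitted in each library over all tested genes with a known length and GC content, not over the members. Its removal thus need not take out the length pattern seen among the members, and can shift their fold changes.

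The members and lists were chosen with earlier results of these data known. A result on an individual member is not reported here. Genes named were, in complexes I, III, IV and V, the 4 with the smallest unadjusted p, all Sdh genes, the highest member per kilobase, paralog sets, members at 0 in a group, the 2 highest and 2 lowest fold changes, the 2 smallest p of each other list, and Mettl14. Smart-Seq does not mark strand: exons of 26 members overlap a gene on the opposite strand, 22 of them a protein-coding one. Processed pseudogene copies (at least 95% identity over 150 bases) exist for 24 members, and held at most 1.81% of a member's own counts (Atp5g2). Amplified reads are not independent molecules. Promoter windows are from RefSeq (GRCm38.p6), and 67 of 85 members had one, matched by Ensembl identifier or else by symbol.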

Additional observations from a re-analysis of the deposited data

How the results depend on the processing

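No OXPHOS subunit gene was called under any of the 13 alternatives, although the count over all genes moved widely. DESeq2 called 141 genes higher and 89 lower in KO, no low-count filter gave 157 and 101, and the trend on length and GC content with the replicate block gave 126 and 64. Leaving out 1 embryo gave 14 to 133 higher and 1 to 209 lower; the lone embryo of a group is then assumed to vary like the others. The remaining alternatives (limma-voom, RLE scaling, library totals, at least 50 counts in 2 libraries, trend removed) called 0. The cause was not tested.

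Same-numbered embryos deviated alike (Pearson 0.33 across genes), but with 2 pairs and no label that ties a number to a litter, the embryos share only a number. The fit with the replicate block called 52 genes higher and 19 lower. For the alternatives, the share of all genes at an unadjusted p under 0.05 is not given. The counts of members that follow thus lack a background and are no result about the members. With the block, 3 members passed that p, all lower in KO. With block and trend together, 5 members passed it higher and 3 lower. Leaving out 1 embryo gave 0 to 1 lower. The members' median log2 fold change ran from -0.049 to 0.049 without 1 embryo. With the trend removed it was 0.012, beside 0.023 over all genes. The count of intervals within 1 log2 unit ran from 6 to 24 without 1 embryo. The summed CPM log2 ratio ran from -0.17 to 0.076 without 1 embryo, and was not computed for the block and trend fits.

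Of 51 named genes tested, 36 kept the sign of their fold change under all 13 alternatives, and 9 were called under at least 1. Those that changed sign with all embryos kept were, with the trend removed and then with the block added, Atp5f1 (0.11, 0.039), Atp5g2 (-0.39, -0.39), Atp5g3 (0.021, 0.021), Cox4i1 (-0.19, -0.20), Cox6a1 (-0.10, -0.14) and Ndufa4 (0.45, 0.44). Under library totals Atp5g3 stood at 0.0021 and Ndufa4 at 0.0077. Without 1 embryo the log2 fold change ran from -0.50 to 0.045 for Atp5c1, -0.20 to 0.28 for Atp5g2, -0.10 to 0.080 for Atp5g3, -0.10 to 0.16 for Cox4i1 and -0.13 to 0.34 for Cox6a1. It ran from -0.99 to 0.21 for Cox6b2, -0.10 to 0.065 for Cox7a2, -0.50 to 0.14 for Cox7a2l, -0.019 to 0.30 for Cox7b2 and -0.12 to 0.14 for Ndufa4. It ran from -1.31 to 0.65 for Ndufa4l2, -0.43 to 0.52 for Sdhc, -0.43 to 0.86 for Sdhd and -0.061 to 0.45 for mt-Cytb. Tissue-restricted isoforms with under 100 counts are limited by depth.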

Other observations

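Outside the respiratory chain, the enzymes of the citric acid cycle had 0 of 16 genes at an unadjusted p under 0.05 by edgeR and a median log2 fold change of -0.06. Over all genes, 4.74% were higher and 3.08% lower at that p. Dlat, of the pyruvate dehydrogenase complex, measured 69.4 and 56.2 CPM in the KO embryos, against 93.9 and 83.0 CPM in the WT embryos (log2 fold change -0.49, edgeR adjusted p = 0.806, DESeq2 adjusted p = 0.852). Suclg2, a subunit of succinyl-CoA ligase, measured 85.7 and 75.6 CPM in the KO embryos, against 120 and 105 CPM in the WT embryos (log2 fold change -0.48). Dlat and Suclg2 were among the 3 of 16 genes for which both KO embryos lay below both WT embryos, beside 18.8% of all genes. For 1 gene both KO embryos lay above, beside 19.4% of all genes.

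Of 28 tested genes of protein import and ATP export, 1 was higher at an unadjusted p under 0.05 (3.57%, beside 4.74% of all genes). That gene was Timm8a1, an import chaperone of the intermembrane space, at 313 and 399 CPM in the KO embryos, against 169 and 227 CPM in the WT embryos (log2 fold change 0.85 ± 0.31 SE, edgeR adjusted p = 0.545, DESeq2 adjusted p = 0.348). Its paralog Timm8a2 measured 3.68 and 8.43 CPM in the KO embryos, against 2.12 and 2.19 CPM in the WT embryos (log2 fold change 1.49 ± 0.67 SE, edgeR adjusted p = 0.650, DESeq2 adjusted p = 0.594). Of 9 tested regulators of nuclear genes for mitochondria, 1 was higher at that p (11.1%, beside the same 4.74%). It was Myc, which measured 336 and 233 CPM in the KO embryos, against 86.7 and 138 CPM in the WT embryos (log2 fold change 1.34 ± 0.36 SE, edgeR adjusted p = 0.391, DESeq2 adjusted p = 0.040). Ppargc1b, a coactivator, measured 4.06 and 5.38 CPM in the KO embryos, against 2.18 and 2.19 CPM in the WT embryos (log2 fold change 1.11 ± 0.64 SE, edgeR adjusted p = 0.762, DESeq2 adjusted p = 0.834).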
